A study of Homo sapiens with 6 samples.

Results

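The retinal pigment epithelium is the pigmented cell layer behind the photoreceptors, and 10 genes that mark it were followed in RPE1 cells with and without depletion of OFD1, a protein of centriolar satellites and basal bodies. The members are the transcription factors PAX6, OTX2, MITF, SOX9 and CRX, the visual cycle genes RLBP1 and RPE65, the channel gene BEST1, and SERPINF1 and TIMP3, which encode secreted proteins. They were chosen by gene name among genes on primary chromosome contigs, and each name matched 1 of the 60666 such genes (67130 gene lines with alternative contigs). The levels in control cells are reported first, then the comparison with OFD1-depleted cells.

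RPE1 is an hTERT-immortalized human line derived from retinal pigment epithelium. All 6 samples came from 1 line (hTERT-RPE1-TOShOFD1, genotype WT in the labels), in which a lentivirus placed a Tet-On short hairpin RNA against OFD1. Control samples (n = 3) grew without doxycycline and OFD1-depleted samples (n = 3) with 200 ng/mL doxycycline, both labelled 72 hours. Since no sample received doxycycline without the hairpin, and none had an unrelated hairpin, doxycycline itself and loss of OFD1 cannot be told apart. The labels give the tissue as retina, and their extraction text speaks of retinas being frozen, although the same labels name a cultured line, so markers of other retinal cells were read as well. The values are FPKM, which counts fragments per kilobase of transcript relative to all mapped fragments, so levels of different genes are compared per length.

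In the eye, OTX2 and MITF set the pigment epithelial fate in the outer layer of the optic cup, together with PAX6, and later act with SOX9 on genes of the mature cell. The mature epithelium absorbs stray light with melanin, takes up shed photoreceptor outer segments, and regenerates the visual chromophore in the visual cycle, where RPE65 makes the isomerization step and the binding protein encoded by RLBP1 carries the product. It also moves ions and fluid toward the choroid, and it secretes factors that act on vessels and on Bruch's membrane. Cultured epithelium is known to lose part of this programme when it is passaged at low density.

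OFD1, the knockdown target, averaged 3.47 ± 0.144 FPKM in control against 0.996 ± 0.375 FPKM after depletion (SD, n = 3 each), a log2 difference of -1.75 (limma, standard error 0.255, adjusted p = 0.00085). Summed FPKM ran from 408302 to 414547 in control and from 433262 to 493510 in OFD1-depleted samples, and mitochondrially encoded genes held 8.66% to 13.8% and 15.6% to 19.3% of it. OFD1-depleted replicate 2 had the highest sum and stood farthest from its group, with an SD of 0.483 (log2) from the other replicates against 0.316 to 0.356 in the other 5 samples. For the listed genes, values without that sample are given beside the calls that changed when it was left out. The table holds no counts, and an approximate depth of 37600000 to 44200000 fragments was read from the steps between low values. At that depth 1 fragment on a transcript of 1 kb is worth about 0.0226 to 0.0266 FPKM.

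In control RPE1 cells 4 of the 10 genes, all transcription factors, had a mean of at least 1 FPKM. SOX9 was highest, followed by PAX6, MITF and OTX2, and the ranges of neighbours in this order did not overlap. SERPINF1 came next, between 0.1 and 1 FPKM, and its control range lay below that of OTX2. BEST1, RLBP1 and RPE65 lay above 0 but under 0.1 FPKM with overlapping ranges, and CRX and TIMP3 were listed at 0 in all 6 samples. Among 19962 protein-coding genes, 53.8% had a control mean of at least 1 FPKM and 21.9% were listed at 0 in every sample. SOX9 exceeded 87.3% of them in the control mean, PAX6 68.7%, MITF 62.9%, OTX2 49.3% and SERPINF1 45.2%. None of 106 genes that every cell uses was listed at 0, and their lowest value was 3.65 FPKM.

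**Figure D1:**
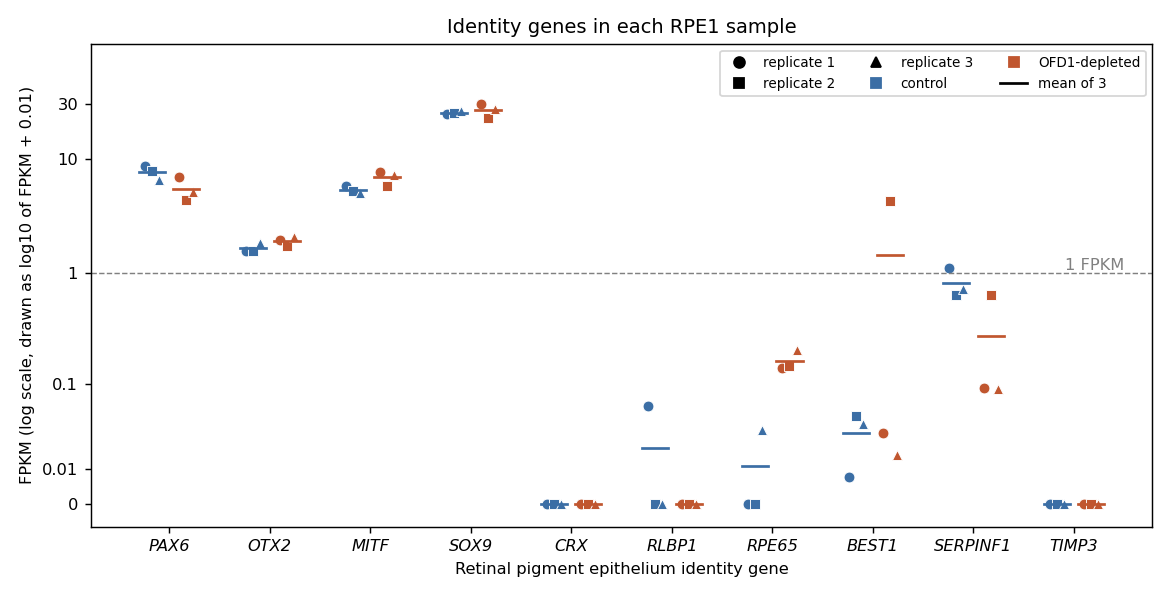
FPKM of the 10 identity genes in each sample, on a log scale drawn as log10 of FPKM + 0.01, with circles, squares and triangles for replicates 1, 2 and 3, blue for control, orange for OFD1-depleted, and a line at each mean of 3. PAX6, OTX2, MITF and SOX9 lie above the dashed line at 1 FPKM in all 6 samples, CRX and TIMP3 lie at 0, and the square at 4.33 FPKM is BEST1 in OFD1-depleted replicate 2.

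After depletion of OFD1 none of the 4 identity genes that could be tested passed the threshold. Limma was fitted to the 12025 genes whose mean over all samples reached 1 FPKM, on log2(FPKM + 0.1), and a gene was called at an adjusted p under 0.05 (Benjamini-Hochberg). It called 2039 genes (17.0%), 610 of them higher (5.07%) and 1429 lower (11.9%) in OFD1-depleted samples, so that 29.9% of the calls were higher. This split moved to 11.9% higher when FPKM were scaled to the same total and to 45.5% higher after quantile normalization. Before adjustment, 2 of the 4 members had a p under 0.05 in limma, PAX6 and MITF, with opposite signs. The labels number the replicates but do not say that they came from separate cultures. The study's heatmap legend for RNA of OFD1-depleted RPE1 cells calls each column a biological replicate, without further detail. The p-values measure the spread between these samples.

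PAX6 encodes the paired-box homeodomain factor at the head of eye development (ENSG00000007372, GRCh38 chromosome 11, 31784779 to 31817961, minus strand). It had 8.64, 7.88 and 6.60 FPKM in control and 6.99, 4.35 and 5.17 FPKM in OFD1-depleted replicates 1, 2 and 3. The groups overlapped, because OFD1-depleted replicate 1 lay above control replicate 3. The means were 7.71 ± 1.03 and 5.50 ± 1.35 FPKM (SD, n = 3), or 71.4% of control. The log2 difference was -0.50, with a 95% interval of -0.91 to -0.08 and an adjusted p of 0.0957 (limma), and a two-sided exact permutation test of the FPKM gave p = 0.2. The adjusted p was 0.03 without OFD1-depleted replicate 1, which had the highest PAX6 value of its group. It was 0.122 to 0.296 when any other single sample was left out. Without OFD1-depleted replicate 2 the log2 difference was -0.35 (limma, adjusted p = 0.17). ELP4, on the opposite strand, overlaps 5546 bases of the PAX6 gene and had 1.41 to 1.86 FPKM in the 6 samples.

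MITF encodes the basic helix-loop-helix factor that drives melanin genes and pigment cell fate (ENSG00000187098, chromosome 3, 69739464 to 69968336, plus strand). Its values were 5.82, 5.30 and 5.06 FPKM in control and 7.75, 5.84 and 7.21 FPKM in OFD1-depleted samples. All OFD1-depleted samples lay above all controls, by a narrow margin between OFD1-depleted replicate 2 and control replicate 1. Of the members tested, MITF alone had groups that did not overlap, against 36.1% of all genes tested. The means were 5.39 ± 0.389 and 6.94 ± 0.986 FPKM (SD, n = 3), a log2 difference of 0.35 with an interval of 0.01 to 0.69 and an adjusted p of 0.150 (limma). The exact permutation test gave p = 0.1, the smallest that 3 samples against 3 allow. Without OFD1-depleted replicate 2 the difference was 0.47 (limma, adjusted p = 0.0263). When any other single sample was left out it was 0.27 to 0.41 (limma, adjusted p from 0.24 to 0.381). With FPKM scaled to the same total it was 0.21 (limma, adjusted p = 0.481).

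OTX2 encodes a homeodomain factor that specifies pigment epithelium and photoreceptors (ENSG00000165588, chromosome 14, 56799905 to 56816693, minus strand). It stood at 1.59, 1.56 and 1.85 FPKM in control and at 1.98, 1.73 and 2.10 FPKM in OFD1-depleted samples, with overlapping groups. The log2 difference was 0.21 with an interval of -0.26 to 0.67 (limma, adjusted p = 0.557), and the exact permutation p was 0.2.

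SOX9 encodes an HMG-box factor of many epithelia and of cartilage (ENSG00000125398, chromosome 17, 72121020 to 72126416, plus strand). It had 24.4, 25.2 and 25.9 FPKM in control and 30.2, 22.8 and 27.2 FPKM in OFD1-depleted samples. OFD1-depleted replicates 1 and 3 lay above the control range and replicate 2 below it. The log2 difference of 0.08, with an interval of -0.22 to 0.38 (limma, adjusted p = 0.744; exact permutation p = 0.6), changed sign to -0.07 with FPKM scaled to the same total. The antisense gene SOX9-AS1, which spans SOX9, had 0.0305 to 0.358 FPKM.

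CRX encodes the cone-rod homeobox factor (ENSG00000105392, chromosome 19, 47819779 to 47843330, plus strand), whose main site is the photoreceptor. Its value was 0 in all 6 samples.

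**Figure D2:**
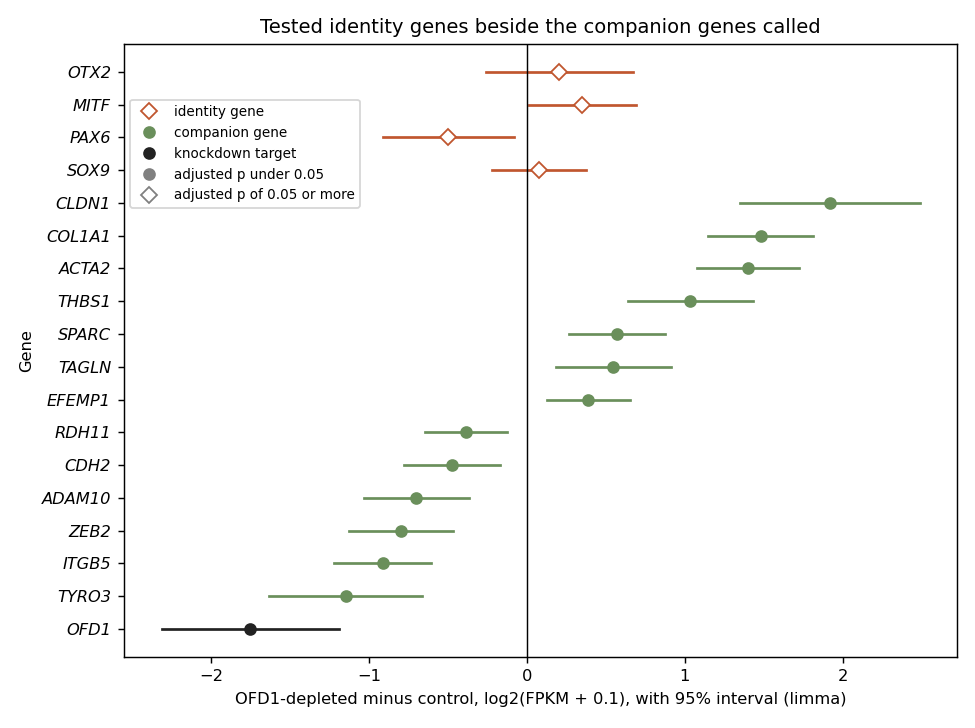
OFD1-depleted minus control difference of log2(FPKM + 0.1) with the 95% interval from limma for the 4 tested identity genes (open diamonds, adjusted p of 0.05 or more), the 13 companion genes that were called (green circles) and OFD1 (black). PAX6 is at -0.50 and MITF at 0.35, OTX2 at 0.21 and SOX9 at 0.08 cross 0, and the called companion genes run from -1.15 for TYRO3 to 1.92 for CLDN1.

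The order of PAX6 and MITF differed between the groups. PAX6 lay above MITF in every control sample and below it in every OFD1-depleted sample. The ratio of their FPKM within a sample, in which any scaling of the whole sample cancels, was 1.49, 1.49 and 1.31 in control and 0.901, 0.745 and 0.717 in OFD1-depleted samples. Its mean was 1.43 ± 0.105 and 0.788 ± 0.0991 (SD, n = 3). This ratio was chosen after the values had been seen and is given without a test. In bulk RNA, fewer cells with a transcript and less of it per cell cannot be told apart, and this applies to every level here.

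The visual cycle members were at trace level. MITF binds E-boxes that hold CATGTG, and OTX2 and CRX bind TAATCC, so the 250 bases before the start site of these genes and of a pair of pigment genes are shown with both words in capitals (RefSeq, GRCh38.p14, 5′ to 3′ on the gene's strand). CACATG and GGATTA are the same words on the other strand. The first is the promoter of RPE65 at chr1:68449955-68450204 (minus strand), the second that of RLBP1 at chr15:89221580-89221829 (minus strand), the third that of TYR at chr11:89177625-89177874 (plus strand) and the last that of GPR143 at chrX:9765848-9766097 (minus strand).
RPE65: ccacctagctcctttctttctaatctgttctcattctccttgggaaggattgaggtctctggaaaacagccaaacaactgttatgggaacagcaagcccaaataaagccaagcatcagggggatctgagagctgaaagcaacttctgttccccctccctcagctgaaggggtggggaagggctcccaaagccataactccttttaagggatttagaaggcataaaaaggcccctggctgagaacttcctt
RLBP1: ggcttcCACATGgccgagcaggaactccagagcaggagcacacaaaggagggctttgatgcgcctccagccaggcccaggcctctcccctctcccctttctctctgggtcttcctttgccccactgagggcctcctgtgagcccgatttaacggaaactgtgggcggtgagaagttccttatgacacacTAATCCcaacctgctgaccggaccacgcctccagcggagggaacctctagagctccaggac
TYR: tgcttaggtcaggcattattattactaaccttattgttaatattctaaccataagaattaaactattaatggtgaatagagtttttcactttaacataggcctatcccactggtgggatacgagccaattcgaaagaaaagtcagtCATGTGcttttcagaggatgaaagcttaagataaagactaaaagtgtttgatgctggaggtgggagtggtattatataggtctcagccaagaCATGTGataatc
GPR143: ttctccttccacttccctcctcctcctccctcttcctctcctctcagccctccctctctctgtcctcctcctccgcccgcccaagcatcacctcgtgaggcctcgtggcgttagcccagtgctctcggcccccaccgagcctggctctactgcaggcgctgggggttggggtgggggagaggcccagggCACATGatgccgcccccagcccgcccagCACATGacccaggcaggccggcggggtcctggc
The RPE65 window held neither word. In RLBP1 the E-box word began at -244 and TAATCC at -61 from the start site, in TYR the E-box word began at -104 and -12, and in GPR143 at -61 and -33. Among 35116 promoter windows of this length, 9.42% held CATGTG on either strand, 6.34% the palindrome CACGTG and 5.62% TAATCC. Of the 10 identity genes 7 had a promoter entry, with 18 windows in all because some genes have several start sites. CATGTG was in 5 of the 18 windows, TAATCC in 2 and CACGTG in 0. Counted by gene, 4 of the 7 held CATGTG in at least 1 window, against 11.5% of all 27305 genes, most of which have fewer windows than PAX6. The other 3, SOX9, BEST1 and SERPINF1, had no entry. TYR and GPR143 were not chosen for display by a rule. Among genes with an entry, CATGTG was in 7 of 9 pigment genes and 3 of 7 other visual cycle genes. Genes that share the E-box word differed in level, as GPR143 had a control mean of 5.30 FPKM, TYR of 0.0301 FPKM and RLBP1 of 0.0203 FPKM. RDH11, with the word, had 39.5 FPKM, and RAB27A, with 5 windows and none holding it, had 7.04 FPKM.

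RPE65, the retinoid isomerase (ENSG00000116745, chromosome 1, 68428822 to 68449954, minus strand), had 0, 0 and 0.0338 FPKM in control and 0.143, 0.147 and 0.209 FPKM in OFD1-depleted samples. Every OFD1-depleted sample lay above every control, and control replicate 3 was the only control above 0. On the canonical transcript of 2605 bases these values amount to about 3.45 fragments in that control and to about 14.8, 16.9 and 22.7 fragments in the OFD1-depleted samples. The exact permutation p was 0.1, the smallest possible. RPE65 lies below the level at which genes were tested, where 4.42% of 16476 genes had OFD1-depleted values all above control. In limma without that filter, which called 0.912% of 28501 genes as higher, RPE65 was the only member called (log2 difference 1.26, standard error 0.220, adjusted p = 0.0371). Its OFD1-depleted mean was 0.166 ± 0.0373 FPKM (SD, n = 3), and all of its values lay under all OTX2 values.

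RLBP1, which encodes the retinaldehyde-binding protein CRALBP (ENSG00000140522, chromosome 15, 89209869 to 89221614, minus strand), had 0.0610 FPKM in control replicate 1, about 3.83 fragments. The other 5 samples were listed at 0, and no difference was detectable at this depth.

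BEST1 encodes bestrophin, a calcium-activated chloride channel of the basolateral membrane (ENSG00000167995, chromosome 11, 61950063 to 61965515, plus strand). It had 0.00696, 0.0475 and 0.0395 FPKM in control and 0.0317, 4.33 and 0.0163 FPKM in OFD1-depleted samples. Only OFD1-depleted replicate 2, the sample that stood apart, was above 0.1 FPKM. The OFD1-depleted mean of 1.46 ± 2.49 FPKM (SD, n = 3) fell to 0.0240 FPKM without it, against 0.0313 ± 0.0215 FPKM in control. The exact permutation p was 0.7, and limma without the filter gave an adjusted p of 0.620.

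The 3′ part of BEST1 overlaps FTH1, the ferritin heavy chain gene, on the opposite strand over 5798 bases. Exons of all annotated transcripts of the pair share 1267 bases, and the canonical transcripts share 177 bases. FTH1 had 666, 787 and 634 FPKM in control and 817, 857 and 732 FPKM in OFD1-depleted samples, highest in the same OFD1-depleted replicate 2. The libraries were made with a directional kit, but whether strand was used in the estimates is not given in the sources used here, and the part of FTH1 reads in the BEST1 value was not tested.

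**Figure D3:**
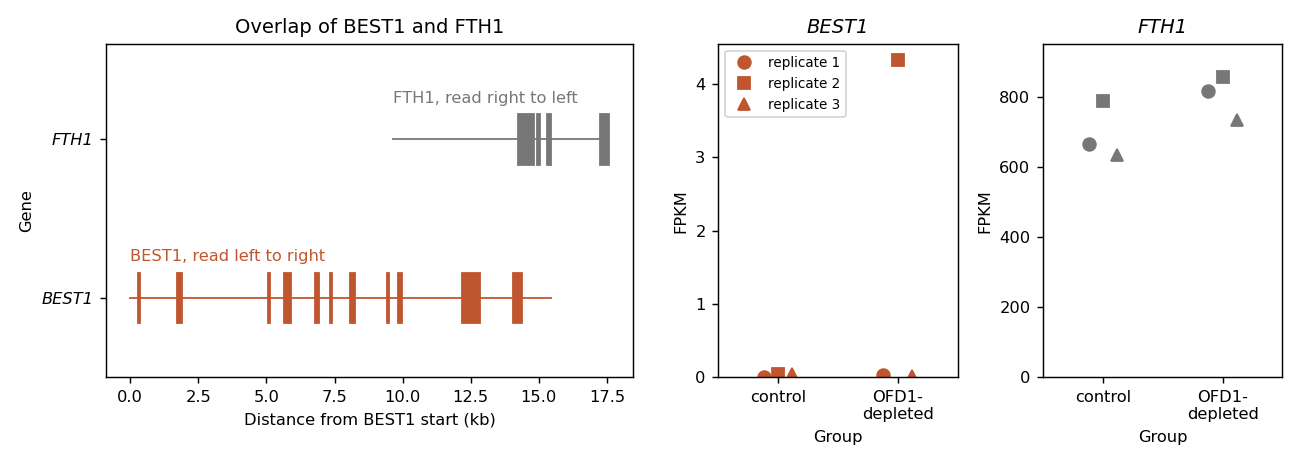
Left, the BEST1 and FTH1 genes with the exons of their canonical transcripts as boxes, drawn to scale against distance from the BEST1 start in kb. Right, FPKM of BEST1 and of FTH1 in the 6 samples, where BEST1 reaches 4.33 FPKM in OFD1-depleted replicate 2 and at most 0.0475 FPKM in the others, while FTH1 runs from 634 to 857 FPKM.

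SERPINF1 encodes PEDF, a secreted serpin without protease inhibition that restrains vessel growth (ENSG00000132386, chromosome 17, 1762029 to 1777565, plus strand). It had 1.11, 0.640 and 0.724 FPKM in control and 0.0908, 0.650 and 0.0900 FPKM in OFD1-depleted samples. OFD1-depleted replicates 1 and 3 lay well under all controls, and OFD1-depleted replicate 2 lay inside the control range. SERPINF1 was thus not among the 5.76% of genes under 1 FPKM with all OFD1-depleted values below control. The means were 0.826 ± 0.253 and 0.277 ± 0.323 FPKM (SD, n = 3), and the second was 0.0904 FPKM without replicate 2 (n = 2). The exact permutation p was 0.2 with all samples, and limma without the filter gave a log2 difference of -1.59 with an interval of -3.09 to -0.09 (adjusted p = 0.274).

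TIMP3 encodes the matrix-bound inhibitor of metalloproteinases found in Bruch's membrane (ENSG00000100234, chromosome 22, 32801705 to 32863041, plus strand). It was listed at 0 in all 6 samples. The whole gene, 61337 bases, lies within SYN3 on the opposite strand, and SYN3 had at most 0.00649 FPKM. How fragments in nested genes were assigned is not given in the sources used here, and its part in the 0 of TIMP3 was not tested. Its paralogs were at other levels, with control means of 187 FPKM for TIMP2, 131 FPKM for TIMP1 and 0.649 FPKM for TIMP4. Of the 10 paralogs of the members, 2 were tested and neither was called (median log2 difference -0.08). Among bestrophins, BEST2 was at 0 in all samples and BEST3, chosen after its values were seen, had 0.176, 0.302 and 0.140 FPKM in control and 0.471, 0.577 and 0.365 FPKM in OFD1-depleted samples.

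The identity genes were set beside 9 companion lists of 113 genes from the same biology, of which 58 were tested, 7 were higher and 6 lower (median log2 difference -0.09, against -0.03 over all genes tested and 0.14 over the 4 members). That is 7 and 6 of 58 against 5.07% and 11.9% of all genes tested. Without OFD1-depleted replicate 2, 20 companion genes were called, and over all genes 1077 were higher in place of 610. Among 12 eye field and MITF family factors, 4 were tested and 0 called (median -0.15). TFE3, a relative of MITF, had a control mean of 28.9 FPKM, SIX3, an eye field homeobox factor, 23.8 FPKM, TFEB 2.51 FPKM and VAX2 1.84 FPKM. RAX and VAX1 were among those listed at 0 in all samples, and LHX2, SIX6 and PAX2 lay under 0.1 FPKM. SIX3 had a log2 difference of -0.22 (limma, adjusted p = 0.265) and TFE3 one of -0.23 (adjusted p = 0.275).

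Of 12 other visual cycle genes 4 were tested, and 1 was lower (median -0.11). RDH11, a retinol dehydrogenase expressed in many tissues, fell from 39.5 to 30.2 FPKM (log2 difference -0.39, limma, adjusted p = 0.0438). The control means of RDH10 and RDH5, also retinol dehydrogenases, were 6.38 and 4.19 FPKM. LRAT, which makes the retinyl esters that RPE65 uses, had a control mean of 0.0814 FPKM, and RGR, RBP4 and TTR were listed at 0 in all samples.

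Of 13 pigment genes 3 were tested and 0 called (median 0.24). These were GPR143, the melanosomal receptor, and RAB27A and RAB38, which act in melanosome and other vesicle traffic. GPR143, whose promoter is printed with the E-box word, had 3.99, 6.93 and 4.98 FPKM in control and 7.37, 7.96 and 6.30 FPKM in OFD1-depleted samples. Control replicate 2 lay above OFD1-depleted replicate 3, so the groups overlapped, and the log2 difference was 0.47 (limma, adjusted p = 0.135). The enzymes of melanin synthesis were at trace level or listed at 0, with TYR at a control mean of 0.0301 FPKM, TYRP1 at 0 in control, and DCT listed at 0 in all samples.

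Of 11 genes for uptake of outer segments, 9 were tested and 2 were lower (median -0.19). ITGB5, the beta subunit of the integrin that binds outer segments, fell from 120 to 63.6 FPKM (log2 difference -0.91, limma, adjusted p = 0.00121). TYRO3, a receptor of the same family as MERTK and AXL, fell from 2.36 to 1.01 FPKM (log2 difference -1.15, adjusted p = 0.00475). MERTK, named after its values were seen because it is the receptor of this process in the epithelium, had 0.834 and 0.713 FPKM and was under the filter. AXL had a control mean of 232 FPKM and GAS6, a ligand of these receptors, of 604 FPKM, while PTK2 had a log2 difference of -0.42 (adjusted p = 0.0981) and PROS1, another ligand, of 0.48 (adjusted p = 0.125). PROS1 was called with a difference of 0.74 when OFD1-depleted replicate 2 was left out (limma, adjusted p = 0.00145).

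Of 14 transport genes 7 were tested and 0 called (median -0.03), a count that moved with the processing. It was 3 without OFD1-depleted replicate 2 (SLC16A1, SLC16A3 and ATP1B1, the last named after its values were seen), 4 with array weights, 2 after scaling to the same total, 2 after quantile normalization and 1 with median-of-ratios scaling. EZR and SLC16A3 were among the genes called with array weights, the same total and quantile normalization. EZR was lower, with a log2 difference of -0.34 (limma, adjusted p = 0.103) in the main fit. The monocarboxylate transporter SLC16A1 had 19.4 and 25.9 FPKM (limma, adjusted p = 0.0773) and SLC16A3 236 and 177 FPKM (adjusted p = 0.128). Without OFD1-depleted replicate 2 their log2 differences were 0.53 (limma, adjusted p = 0.00719) and -0.56 (adjusted p = 0.0345). The same fit gave ATP1B1 a log2 difference of 0.34 (limma, adjusted p = 0.0319). SLC16A8, the transporter particular to this epithelium in the eye, was at 0 in control, and the channel genes KCNJ13, CLIC6 and TRPM1 were at 0 in all samples. BSG, the partner of these transporters, had a control mean of 370 FPKM.

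Of 13 epithelial junction genes 5 were tested, 1 was higher and 1 lower (median -0.23). CLDN1, a tight junction claudin, rose from 0.729 to 3.01 FPKM (log2 difference 1.92, limma, adjusted p = 0.000517). All of its controls were under 1 FPKM, so it passed the filter through the OFD1-depleted samples, and without a filter its adjusted p was 0.0152. OCLN, another tight junction gene, was not tested because its mean over the 6 samples was under 1 FPKM. CDH2, N-cadherin, fell from 74.9 to 54.2 FPKM (log2 difference -0.47, adjusted p = 0.0387). CLDN19, the claudin of mature human epithelium, and CDH3 were at 0 in all samples, and CDH1, E-cadherin, had a control mean of 0.0181 FPKM.

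Of 11 partners of TIMP3 and PEDF, 8 were tested, 1 was higher and 1 lower (median -0.10). ADAM10, a membrane protease that TIMP3 inhibits, fell from 12.8 to 7.93 FPKM (log2 difference -0.70, limma, adjusted p = 0.00882). EFEMP1, a matrix protein that binds TIMP3, rose from 122 to 160 FPKM (log2 difference 0.39, adjusted p = 0.0449). MMP2 and MMP14, metalloproteinases that TIMP3 inhibits, had control means of 497 and 310 FPKM, and PNPLA2, a receptor for PEDF, of 91.4 FPKM.

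Of 17 mesenchymal genes 16 were tested, 5 were higher and 1 lower (median 0.27). COL1A1 rose from 8.68 to 24.4 FPKM (log2 difference 1.48, limma, adjusted p = 9.37e-05), ACTA2 from 238 to 632 FPKM (1.40, adjusted p = 0.000104) and THBS1 from 227 to 471 FPKM (1.04, adjusted p = 0.00251). SPARC (0.57, adjusted p = 0.0168) and TAGLN (0.55, adjusted p = 0.0423), named after their values were seen, also rose. ACTA2 and TAGLN encode proteins of contractile actin filaments, and COL1A1, THBS1 and SPARC encode proteins of the matrix. ZEB2, a repressor of epithelial genes, fell from 6.82 to 3.90 FPKM (log2 difference -0.80, adjusted p = 0.0042). Without OFD1-depleted replicate 2, 9 mesenchymal genes were called. Those added were CCN2 (log2 difference 0.49, limma, adjusted p = 0.0173), SNAI2 (0.58, adjusted p = 0.0474) and TWIST1 (-0.56, adjusted p = 0.0353). SNAI2 and TWIST1 were named after their values were seen. VIM, vimentin, was the most abundant listed gene with a control mean of 4288 FPKM, and SOX9, the highest identity gene, had 25.2 FPKM.

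Markers of other cell types were read because the labels name the retina. Of 20 photoreceptor markers 1 had a control mean of at least 1 FPKM, ROM1 at 3.87 FPKM, and SAG, PDE6B, RCVRN and AIPL1 were among those listed at 0 in all samples. Their summed level was 4.78 to 6.14 FPKM in control and 3.85 to 5.17 FPKM in OFD1-depleted samples. RP1 followed at 0.912 FPKM and GNAT2 at 0.224 FPKM. Inner retina neuron markers summed to 3.02 to 4.26 and 3.48 to 4.17 FPKM, nearly all of it SLC6A9 (3.16 FPKM in control), with 6 of 9 at 0 throughout. In these lists 2 photoreceptor markers and 1 neuron marker were tested, and none was called with all 6 samples. Without OFD1-depleted replicate 2, ROM1 was called lower (log2 difference -0.84, limma, adjusted p = 0.0284).

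Müller glia and astrocyte markers summed to 10.8 to 12.2 FPKM in control and 4.93 to 7.41 FPKM in OFD1-depleted samples, and 1 of 6 was tested. This was GLUL, glutamine synthetase, which many cultured cells express. It averaged 6.27 FPKM after depletion, 56.7% of its control mean, a log2 difference of -0.83 (limma, adjusted p = 0.00804). GFAP and S100B had control means of 0.299 and 0.0575 FPKM. Melanocyte markers summed to 0.416 to 0.745 and 0.379 to 0.429 FPKM, with SOX10, PAX3 and KIT at 0 and ERBB3 highest at 0.454 FPKM. Endothelial markers summed to 0.903 to 1.02 and 0.756 to 1.23 FPKM with CDH5 and CLDN5 at 0, and blood and myeloid markers to 0.757 to 1.02 and 0.634 to 0.855 FPKM with AIF1 and TYROBP at 0. None of these last 3 lists had a gene that was tested. The 10 identity genes summed to 40.2 to 41.6 FPKM in control and 39.8 to 47.2 FPKM in OFD1-depleted samples.

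**Figure D4:**
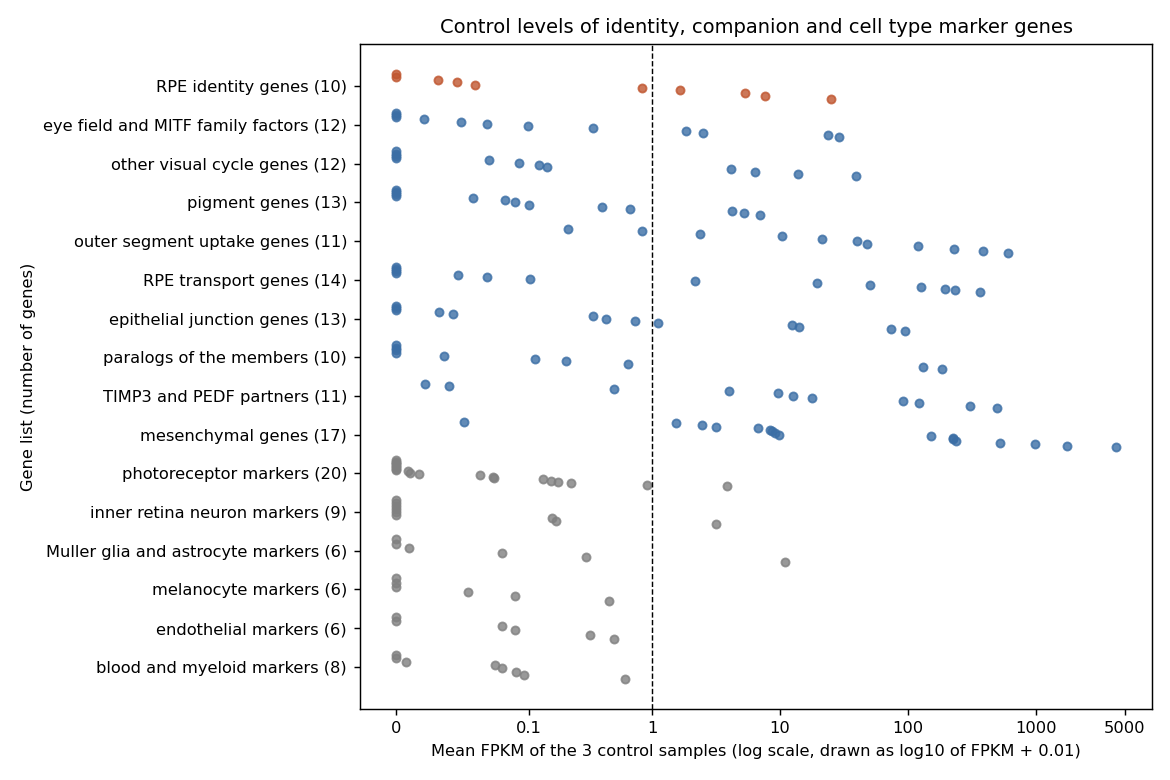
Control mean FPKM of each listed gene (points, log scale drawn as log10 of FPKM + 0.01) for the identity genes (orange), the 9 companion lists (blue) and the 6 marker lists of other cell types (grey), with the number of genes in brackets and a dashed line at 1 FPKM. The identity genes spread from 0 to 25.2 FPKM with 4 above the line, uptake and mesenchymal genes mostly lie to the right of it, and of the marker genes ROM1, SLC6A9 and GLUL pass it.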

How the data were processed

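Total RNA of 6 samples was sequenced from directional libraries, and the labels name 2 library kits. Per the labels, reads were aligned with HISAT2 2.0.5 to GRCh38 (Ensembl version 94 in the study's methods), and the authors deposited FPKM from StringTie, whose version and strand setting are not given in the sources used here. FPKM is already divided by depth and length, so tests of counts were not used.

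Groups came from the sample titles. Genes on primary contigs with a mean of at least 1 FPKM were compared by limma 3.58.1 with a variance trend (R 4.3.3), on log2(FPKM + 0.1), which understates changes of low genes. Two-sided p-values received Benjamini-Hochberg adjustment over all 12025 genes. Single members were also compared by two-sided exact permutation of their FPKM. The script was tested on simulated data. No 2 samples were identical. Depth was estimated from FPKM steps, as the value from 25000000 to 60000000 fragments that put the largest share of low values near whole multiples. That share, within 0.03 of whole multiples, was 18.4% to 21.0%, against 6% by chance at a depth fixed in advance. Since the depth was picked for this share, the comparison is no test, and the depth is approximate. Canonical transcripts and exons came from GENCODE version 44. Promoters came from RefSeq (GRCh38.p14). Python 3.11.15, numpy 2.4.6, pandas 2.3.3 and scipy 1.17.1 were used.

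The members and lists were chosen with earlier results of these data known. The genes named are the 10 members, OFD1, and per companion list up to 4 tested genes with the smallest p and up to 3 with the highest control mean. Per marker list they are up to 3 of the highest and some of the defining absent genes, except where stated. Of the endothelial and the blood and myeloid markers, only genes at 0 are named, although others in these lists were above 0. A few listed genes count in their lists but are not reported here by name. As alternatives, the pseudocount was set to 1 or 0.01 and the filter dropped or raised to 5 FPKM, and the fit was repeated with scaling to the same total (TPM), median-of-ratios and quantile scaling, no trend, array weights, a replicate block, protein-coding genes alone, and each sample left out.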

Additional observations from a re-analysis of the deposited data

How the results depend on the processing

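The 17 alternatives gave 955 values for 58 results, and 816 of them counted as kept. For tested genes this meant the same direction and side of the threshold, and for counts a value within 1.5 times. For RLBP1, RPE65, BEST1 and SERPINF1, which were under the filter, it meant a shift smaller than the pooled within-group SD (log2). A change of sign could therefore count as kept for those genes. The count of identity genes called was 0, and it was 1 without a filter (RPE65), 1 after quantile normalization (MITF), 2 with array weights (PAX6 and MITF), and 0 to 1 when single samples were left out. PAX6 kept its sign in all 17 alternatives (adjusted p from 0.03 to 0.296), with a log2 difference of -0.46 and an adjusted p of 0.0389 under array weights and a range of -0.68 to -0.35 over left-out samples. MITF kept its sign in all 17 (adjusted p from 0.0252 to 0.481), with 0.48 (adjusted p = 0.0252) after quantile normalization, 0.39 (adjusted p = 0.0266) with array weights and 0.27 to 0.47 over left-out samples. OTX2 kept its sign without a call in the 16 alternatives that tested it (adjusted p from 0.217 to 0.879). The log2 fold change of SOX9 was reversed to -0.0691 under scaling to the same total, where the median of all genes moved by -0.14, and to -0.0148 without OFD1-depleted replicate 1, with a range over left-out samples of -0.0148 to 0.188. Companion genes called numbered 13, and 7 without a filter, 26 with array weights and 8 to 20 over left-out samples. RDH11 and CDH2 stayed called in 9 of 17 alternatives, EFEMP1 in 8, TAGLN in 10 and SPARC in 12. Over all genes 2039 were called, 1083 without a filter, 3956 with array weights and 1111 to 2818 over left-out samples, the last without OFD1-depleted replicate 2. The cause of these changes was not tested. Under the replicate block, 2296 genes and 0 identity genes were called. Same-numbered samples of the groups correlated at 0.0579, 0.0481 and 0.0110 in their deviations from the group means. Samples with different numbers correlated at -0.0799 to 0.0503, and 2 of the 6 samples correlated better with another number. Whether same-numbered samples were handled together cannot be told from these values. Genes near 0.03 FPKM, such as RLBP1, rest on a few fragments, and the file gives no counts from which an interval could be drawn.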

Other observations

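Among the listed companion and marker genes under a mean of 1 FPKM, 68 of 103 were above 0 in at least 1 sample, and these values, chosen after they were seen, are given without a test. In 3 of them, CD36, BEST3 and PDE6A, all OFD1-depleted samples lay above all controls, and in 7, among them MLANA, OCLN and BEST4, all lay below. Over all genes above 0 and under 1 FPKM these shares were 4.42% and 5.76%. CD36, a scavenger receptor of outer segment uptake, had 0.131, 0.267 and 0.244 FPKM in control and 0.388, 0.279 and 0.355 FPKM in OFD1-depleted samples. OCLN, occludin of the tight junction, had 1.16, 1.02 and 1.15 FPKM in control and 0.937, 0.580 and 0.971 FPKM in OFD1-depleted samples, the opposite order to CLDN1. MLANA, a melanosome protein, had 0.0481, 0.0758 and 0.105 FPKM in control and 0.00837, 0 and 0 FPKM in OFD1-depleted samples, while SLC45A2, a melanosomal transporter, had 0.354, 0.806 and 0.826 FPKM in control and 1.07, 1.18 and 0.739 FPKM in OFD1-depleted samples. BEST4, a paralog of BEST1, had 0.111, 0.119 and 0.111 FPKM in control and 0.0315, 0.0164 and 0 FPKM in OFD1-depleted samples.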
